A study of Mus musculus with 5 samples.

Results

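The mRNA levels of the translation initiation and elongation factors were examined in brown adipose tissue (BAT) of mice lacking ATF4 in thermogenic adipocytes and of wild-type (WT) littermates. The factors were all protein-coding genes whose symbols begin with Eif or Eef, without the eIF2 kinases (Eif2ak), the eIF4E-binding proteins (Eif4ebp) and the sex-linked pair Eif2s3x and Eif2s3y. This gave 60 of 52022 genes with a matched transcript. They were 4 genes named for eIF2, 5 subunits of eIF2B, 14 genes named for eIF3 and 13 named for eIF4. A further 14 were named for the elongation factors (eEF), and 10 were other initiation factors. The groups follow the symbols and not the complexes: Eif2a and Eif2d encode separate initiation factors and not subunits of eIF2, and the eEF group also holds methyltransferases and a kinase that modify elongation factors.

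RNA came from 3 mice of genotype ATF4 BKO (KO in the labels) and 2 WT mice, all labelled male, aged 10 to 12 weeks per the study text. ATF4 BKO mice carried a floxed Atf4 gene with Cre driven by the Ucp1 promoter on a C57Bl/6J background, and WT mice were floxed littermates without Cre. Cells of BAT that do not express Ucp1 keep Atf4 in this model. All mice had been acclimated to 30 °C for 7 days and were then kept at 4 °C for 3 days with food available, so every library is from cold-exposed tissue and no comparison with warm mice is possible here.

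Translation of most mRNAs begins when eIF2, loaded with GTP and initiator tRNA, joins the small ribosomal subunit together with eIF1, eIF1A, eIF3 and eIF5, and when the eIF4 proteins bind the cap and unwind the mRNA. eIF2B recharges eIF2 with GTP, and when stress kinases phosphorylate eIF2 it can no longer do so, general initiation falls, and ATF4 is made from an mRNA whose upstream reading frames favour its translation under those conditions. Elongation then depends on eEF1A, which delivers aminoacyl-tRNA, its exchange factor eEF1B, and eEF2, which moves the ribosome along the message.

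Total estimated counts ranged from 24698337 to 32452751 per library. Atf4 itself was given 739, 1478 and 697 counts in the ATF4 BKO libraries and 9028 and 7674 in WT, in the direction of the labels (log2 fold change -2.82, SE 0.34; edgeR adjusted p = 0.671, DESeq2 adjusted p = 9.72e-12). ATF4 BKO replicate 1 stood apart from its label: it held 2 counts of the Y-linked Eif2s3y, against 1091 to 1702 in the other libraries, and 4598 counts of Xist, against at most 7. Its label says male, so values without it are given where they matter. The mean level of 20 skeletal muscle markers was -1.27, 0.45 and -1.74 log2 CPM (counts scaled to library size) in ATF4 BKO replicates 1 to 3 and 2.03 and 6.26 in WT replicates 1 and 2. That of 9 macrophage markers was 5.497, 6.23 and 4.74 in ATF4 BKO and 4.01 and 5.84 in WT. The 12 brown adipocyte markers were high in every library, at 9.42, 9.43 and 9.53 log2 CPM in ATF4 BKO and 9.17 and 9.38 in WT. Of these 12, 10 had a log2 fold change above 0 and 2 below (median 0.17). The 6 endothelial markers had a mean of 6.997, 7.15 and 7.39 log2 CPM in ATF4 BKO and 6.64 and 6.90 in WT. All 6 had a log2 fold change above 0 (median 0.37), 3 with every ATF4 BKO library above both WT libraries, beside 8.95% of all genes. Of the nerve and Schwann cell markers 4 of 6 were tested, and of the B cell markers 5 of 6, and all of these lay above 0 too, with medians of 0.70 and 0.43. The part of these cells in the factor results was not tested. Nothing in the labels says how the mice were paired or housed, so p-values measure only the spread between these libraries. In bulk tissue, fewer cells of a type and less RNA per cell cannot be told apart.

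The factors differed widely in level. Levels between genes were compared in TPM, which divides counts by transcript length and scales each library to the same total. Eef1a1, the main eEF1A gene, stood at 2045, 2853 and 2111 TPM in the ATF4 BKO libraries and 3821 and 2778 TPM in WT, which was 29.8% to 32.7% of the summed TPM of all 60 factors in each library. Eif1, which guards start-codon choice, had 877, 1207 and 932 TPM in ATF4 BKO and 1629 and 1324 TPM in WT. Eef2 had 459, 678 and 574 TPM against 808 and 596. Eif5a, the hypusine-carrying factor, and Eif4a1, the main helicase of the cap-binding complex, followed. At the other end, Eif4e1b, Eef1akmt3 and Eif5a2 stayed under 1 TPM in every library.

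The summed TPM of the 60 factors was 6792, 9197 and 7092 in ATF4 BKO replicates 1 to 3 and 11700 and 9207 in WT replicates 1 and 2, or 7694 ± 1310 (SD, n = 3) against 10453 ± 1763 (SD, n = 2). The ATF4 BKO mean was 73.6% of the WT mean, but ATF4 BKO replicate 2 and WT replicate 2 lay side by side. With 3 libraries against 2 an exact permutation test cannot reach a two-sided p under 0.1. TPM adds to a fixed total per library, and transcripts of the mitochondrial genome took 21.96%, 18.5% and 19.96% of counts in ATF4 BKO but 15.57% and 15.12% in WT. As a share of the TPM outside the mitochondrial genome, the factors made up 1.06%, 1.32% and 1.06% in ATF4 BKO and 1.56% and 1.24% in WT, so that ATF4 BKO replicate 2 was above WT replicate 2 and the genotypes overlapped. By group, the ATF4 BKO mean of summed TPM was 64.5% of WT for the eIF2 genes, 82.3% for eIF2B, 76.6% for eIF3, 76.8% for eIF4, 71.3% for the other initiation factors and 72.9% for eEF.

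**Figure D1:**
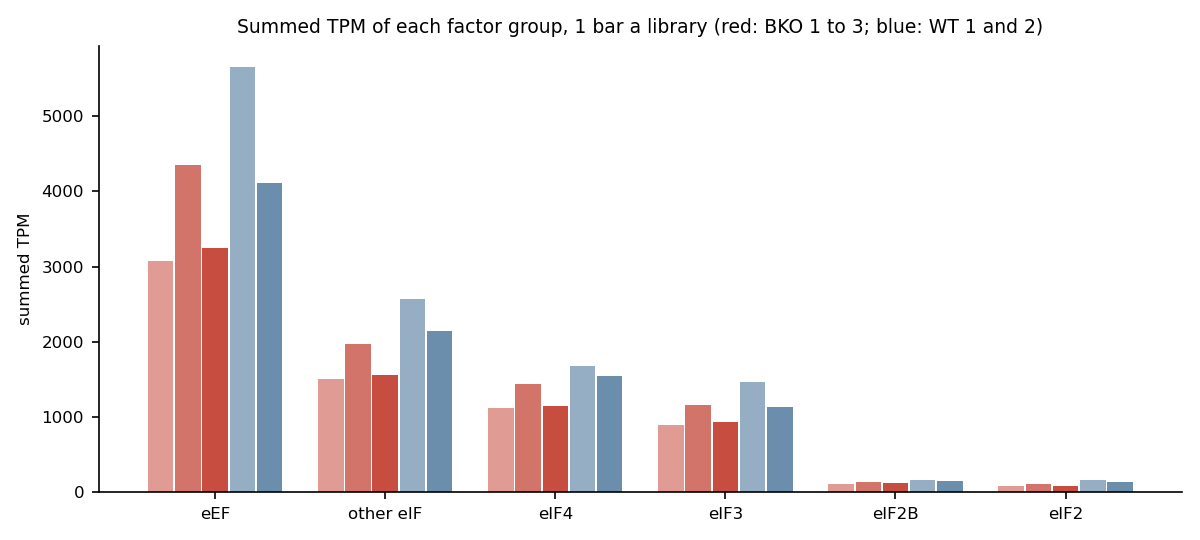
Summed TPM (vertical axis) of each factor group, with 1 bar for each library, ATF4 BKO in red and WT in blue. WT replicate 1 has the tallest bar in all 6 groups, and ATF4 BKO replicate 2 is taller than the other 2 ATF4 BKO libraries in all 6.

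To compare libraries, gene sums were scaled by the trimmed mean of M-values (TMM) and tested in edgeR by quasi-likelihood, for 16450 genes that reached 10 counts in 2 or more libraries. Of the 60 factors, 58 entered the test. Fold changes are ATF4 BKO over WT on the log2 scale. Of these 58, 54 had a log2 fold change below 0, while 48.8% of all genes tested did, and the median was -0.20 for the factors and 0.0077 for all genes. No factor passed an adjusted p of 0.05 in edgeR. The smallest was 0.704, and among all genes tested 1, or 0.00608%, passed. At an unadjusted p under 0.05, 5 factors were lower and 0 higher, beside 3.42% and 1.81% of all genes. DESeq2 called 1 factor lower (Eef1a2) and 0 higher at an adjusted p under 0.05, beside 0.608% and 0.128% of all genes. In 14 of the 58 every ATF4 BKO library was below both WT libraries, and in 0 every one was above, where 10.6% and 8.95% of all genes had these orders. Eef1a2 is in each of these counts of lower factors, although it passed the count filter only through the WT libraries and could only be lower. Apart from Eef1a2, the differences were small in each gene and mostly of 1 sign, and no other factor passed an adjusted test in either tool. The size of the median depended on WT replicate 1, as the values by library given further on show.

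**Figure D2:**
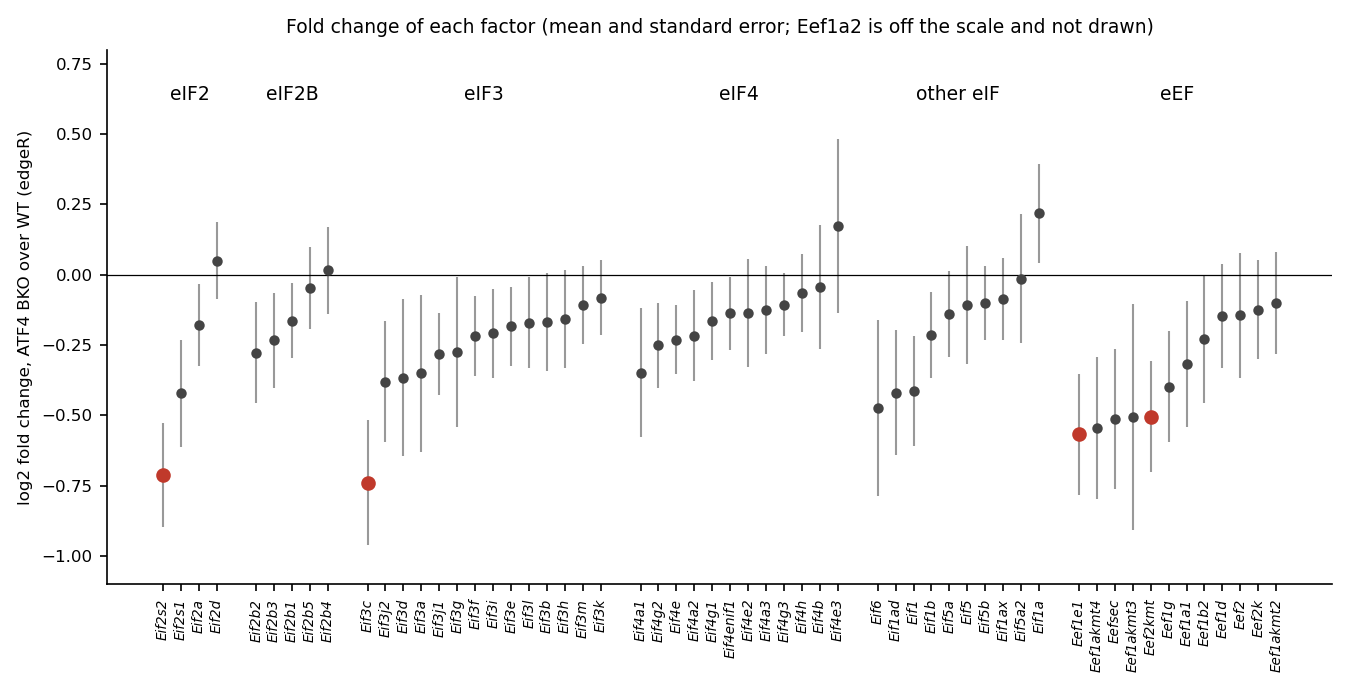
Log2 fold change of each tested factor, ATF4 BKO over WT, from edgeR (vertical axis; points with standard errors), sorted within the 6 factor groups on the horizontal axis, with red for an unadjusted p under 0.05. Eef1a2, at -5.95, is off the scale and not drawn. Most points lie between -0.60 and 0, and 4 lie above 0.

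Among the eIF2 genes, Eif2s2, which encodes the beta subunit that contacts eIF5 and eIF2B, showed the clearest separation. It lies at chr2:154871410-154892935 on the minus strand of GRCm38. Its level was 66.9, 76.1 and 66.4 CPM in ATF4 BKO replicates 1 to 3 and 135.5 and 93.2 CPM in WT. All 3 ATF4 BKO libraries were below both WT libraries, and the WT pair differed more from each other than the ATF4 BKO libraries did. The log2 fold change was -0.71 (SE 0.19, edgeR adjusted p = 0.771, unadjusted p = 0.00833; DESeq2 adjusted p = 0.134). Without ATF4 BKO replicate 1 it was -0.68. Eif2s1, the alpha subunit that stress kinases phosphorylate, had 35.1, 46.4 and 36.8 CPM in ATF4 BKO and 60.3 and 45.4 CPM in WT, so that ATF4 BKO replicate 2 exceeded WT replicate 2 (log2 fold change -0.42, SE 0.19, edgeR adjusted p = 0.911). Eif2d, which supports initiation without eIF2, was flat at 20.6, 18.6 and 18.7 CPM against 19.1 and 18.1 CPM. The gamma subunit is encoded by Eif2s3x and Eif2s3y, which are sex-linked, and in view of the Eif2s3y counts of ATF4 BKO replicate 1 their sum was not compared.

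The 5 eIF2B subunits, which form the exchange factor for eIF2, had log2 fold changes between -0.28 (Eif2b2) and 0.015 (Eif2b4), with a median of -0.16. Eif2b1 had 29.4, 30.9 and 28.95 CPM in ATF4 BKO and 36.0 and 30.6 CPM in WT. Eif2b2 had 17.8, 19.97 and 20.7 CPM against 27.2 and 19.97 CPM, and Eif2b3 had 15.5, 17.8 and 15.3 CPM against 21.1 and 17.0 CPM. In these 3 subunits only WT replicate 1 stood clear of the ATF4 BKO range. Eif2b4 (42.9, 52.9 and 45.7 CPM against 51.2 and 42.1 CPM) and Eif2b5, the catalytic subunit (76.45, 65.1 and 73.3 CPM against 81.3 and 66.8 CPM), showed no order by genotype. No eIF2B subunit had all ATF4 BKO libraries below both WT libraries, and the smallest edgeR adjusted p among them was 0.920.

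All 14 genes named for eIF3, the large scaffold that holds the small ribosomal subunit open for mRNA, had log2 fold changes below 0. They ran from -0.74 (Eif3c) to -0.081 (Eif3k), with a median of -0.21. Eif3c, which bridges eIF3 to eIF1 and eIF5, had 165.5, 205.0 and 181.8 CPM in ATF4 BKO and 376.6 and 238.2 CPM in WT. The genotypes did not overlap, although WT replicate 2 was much nearer to the ATF4 BKO libraries than to WT replicate 1. Its log2 fold change was -0.74 (SE 0.22, edgeR adjusted p = 0.869, unadjusted p = 0.0156; DESeq2 adjusted p = 0.238). It lies at chr7:126546455-126566411 on the minus strand. Eif3a, the largest scaffold subunit, had 119.1, 216.4 and 132.4 CPM in ATF4 BKO and 216.4 and 181.6 CPM in WT, so ATF4 BKO replicate 2 matched the higher WT library. Eif3k, with the highest mean TPM of the complex, had 77.4, 83.1 and 78.75 CPM against 92.3 and 76.4 CPM and overlapped. WT replicate 1 was the higher WT library for all 14 genes, and without it the eIF3 median was 0.052, with 6 of 14 genes below 0. The direction of the group therefore rested on that 1 library. Of the 31-base words of Eif3j2, 93.95% occur in Eif3j1, and 38.1% of those of Eif3j1 occur in Eif3j2, so their separate values are uncertain.

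Of the genes named for eIF4, 12 were tested and 11 lay below 0, from -0.35 (Eif4a1) to 0.17 (Eif4e3) around a median log2 fold change of -0.14. Eif4e, the cap-binding protein, had 59.8, 56.7 and 54.5 CPM in ATF4 BKO and 71.1 and 62.7 CPM in WT, without overlap (log2 fold change -0.23, SE 0.12, edgeR adjusted p = 0.911). Eif4g1, the scaffold that joins eIF4E to eIF4A and eIF3, had 463.2, 415.9 and 441.0 CPM against 513.7 and 472.7 CPM, also without overlap (log2 fold change -0.16, SE 0.14). In all, 5 of the 12 had every ATF4 BKO library below both WT libraries, beside 10.6% of all genes. Besides Eif4e and Eif4g1, they were Eif4g2, Eif4g3 and Eif4enif1, named here after their values were seen. The 2 general helicase genes overlapped between genotypes. Eif4a1 had 255.9, 385.3 and 296.0 CPM against 457.6 and 338.2 CPM. Eif4a2 had 209.9, 249.9 and 187.8 CPM against 258.4 and 243.4 CPM, with ATF4 BKO replicate 2 above WT replicate 2 in both genes. Eif4e3, a divergent cap-binding relative of eIF4E, went from 67.4 CPM in ATF4 BKO replicate 2 to 144.8 CPM in replicate 1, around WT values of 94.7 and 97.7 CPM.

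The median log2 fold change of the 10 other initiation factors was -0.12, and 9 of them lay below 0. Eif1 had 363.1, 462.1 and 405.4 CPM in ATF4 BKO and 630.8 and 461.7 CPM in WT (log2 fold change -0.41, SE 0.19, edgeR adjusted p = 0.911), and ATF4 BKO replicate 2 and WT replicate 2 were nearly the same. Eif6, which keeps the large ribosomal subunit from joining too early, had 38.7, 52.6 and 39.7 CPM against 81.2 and 40.1 CPM, the lowest value of the group at -0.47 (SE 0.31), and it was high in WT replicate 1 alone. Eif5a had 345.5, 310.2 and 321.3 CPM against 396.0 and 321.3 CPM. Eif1a, one of the mouse genes for the scanning factor eIF1A, had 60.6, 84.6 and 69.9 CPM against 57.2 and 66.0 CPM, the highest log2 fold change of all factors at 0.22 (SE 0.18), and its libraries overlapped too.

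The eEF group had the lowest median, -0.40, and all 13 tested genes were below 0, among them Eef1a2, which could only be lower. WT replicate 1 was above WT replicate 2 in 12 of the 13, by a median of 0.51 log2 units. Eef1a2, the eEF1A gene that replaces Eef1a1 in adult muscle and neurons, was given 1, 8 and 6 counts in ATF4 BKO replicates 1 to 3 and 51 and 730 counts in WT replicates 1 and 2. The 2 WT libraries differed from each other more than in any other factor. Their order was that of the muscle markers given above, whose part in the result was not tested. Eef1a2 passed the count filter only through the WT libraries, so it had to be lower in ATF4 BKO. Its fitted log2 fold change was -5.95 (SE 1.19, edgeR adjusted p = 0.704; DESeq2 adjusted p = 0.00727). None of the 31-base words of Eef1a2 occur in another gene.

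The factors that carry elongation in most cells moved less. Eef1a1 had 2662, 3255 and 2737 CPM in ATF4 BKO and 4230 and 2961 CPM in WT, and Eef2 had 1251, 1619 and 1519 CPM against 1899 and 1333 CPM. In both genes ATF4 BKO replicate 2 was above WT replicate 2. The log2 fold changes were -0.32 (SE 0.23) for Eef1a1 and -0.14 (SE 0.22) for Eef2. Of the 31-base words of Eef1a1, 51.5% occur in other genes, most often in processed pseudogenes, and the counts may be split among them.

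A pair of less abundant genes of the group separated the genotypes at an unadjusted p under 0.05. Eef1e1, which encodes a part of the multi-tRNA synthetase complex, had 9.27, 10.04 and 8.21 CPM in ATF4 BKO and 15.9 and 11.2 CPM in WT (log2 fold change -0.57, SE 0.22, edgeR adjusted p = 0.911), and none of its 31-base words occur elsewhere. Eef2kmt, the methyltransferase of eEF2, had 19.7, 18.7 and 16.4 CPM against 30.6 and 21.2 CPM (log2 fold change -0.51, SE 0.20, edgeR adjusted p = 0.911), with 16.3% of its words shared with its neighbour Alg1. Eef2k, the kinase that inhibits eEF2, had 14.5, 11.9 and 11.3 CPM against 13.8 and 13.6 CPM, and Eef1akmt2 had 8.74, 7.79 and 8.15 CPM against 9.40 and 8.26 CPM. Both overlapped between genotypes.

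**Figure D3:**
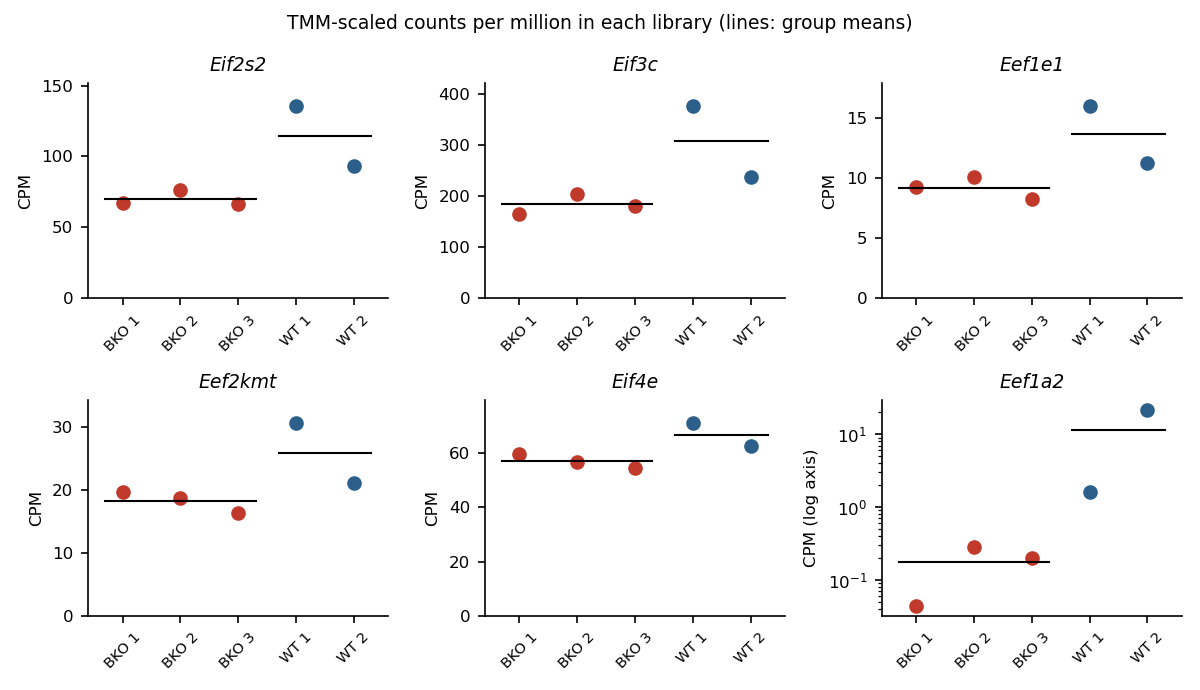
TMM-scaled CPM (vertical axes) of 6 factors in each library (horizontal axes), ATF4 BKO in red and WT in blue, with lines at the group means; the axis of Eef1a2 is logarithmic. In all 6 the ATF4 BKO points lie below both WT points, and in all but Eef1a2 WT replicate 1 is the highest library.

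The level of the factors as a whole varied between libraries of the same genotype. Measured as the deviation of log2 CPM from the mean of the 5 libraries, the median over the 58 factors was -0.15, 0.034 and -0.13 in ATF4 BKO replicates 1 to 3 and 0.29 and -0.023 in WT replicates 1 and 2. For all 16450 genes these medians lay between -0.018 and 0.037. WT replicate 1 was above WT replicate 2 in 53 of 58 factors, by a median of 0.29, and was the highest of all 5 libraries in 47. ATF4 BKO replicate 2 was above the mean of the other 2 ATF4 BKO libraries in 47 of 58. In these medians WT replicate 1 was farther from WT replicate 2 than any ATF4 BKO library was. WT replicate 1 had the lowest level of the 5 libraries for the macrophage, brown adipocyte, endothelial and B cell markers. It was not the lowest for the muscle or the nerve and Schwann cell markers. WT replicate 2 had the highest muscle marker level. The part of any of these in the factor levels was not tested.

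**Figure D4:**
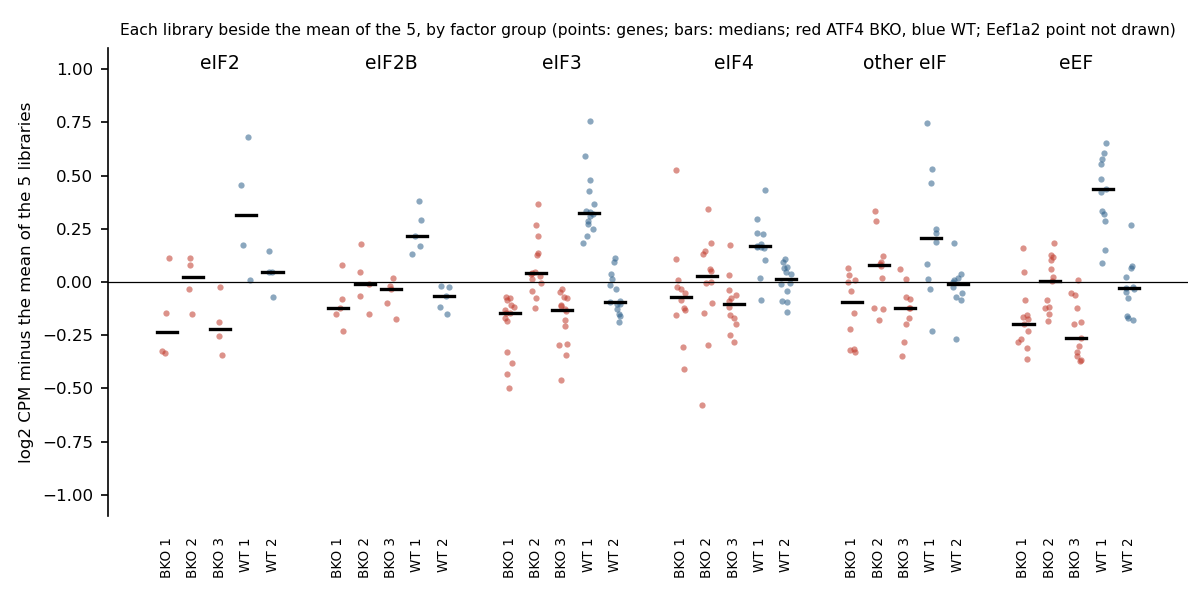
Log2 CPM of each factor minus its mean over the 5 libraries (vertical axis), 1 point for each gene, by library and factor group, ATF4 BKO in red and WT in blue, with bars at the group medians. The median of WT replicate 1 lies above 0 in every group, while those of WT replicate 2 and ATF4 BKO replicate 2 lie between -0.094 and 0.081.

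Leaving out WT replicate 1 brought the median log2 fold change of the factors from -0.20 to -0.027, with 33 of 57 below 0 and 0 at an unadjusted p under 0.05, where 1.61% of all genes were lower and 0.718% higher at that p. Leaving out WT replicate 2, the library with the muscle signal, gave -0.35, with 55 of 57 below 0 and 15 lower and 0 higher at an unadjusted p under 0.05. The same analysis put 6.3% of all genes lower and 5.66% higher at that p, so more genes of any kind passed it than with both WT libraries. Without ATF4 BKO replicate 1 the median was -0.19, with 53 of 58 below 0. The deposited sample names carry a prefix whose meaning is not given, which puts WT replicate 1 with ATF4 BKO replicates 1 and 2, and WT replicate 2 with ATF4 BKO replicate 3. Within the first set the median log2 difference, ATF4 BKO minus WT, was -0.34, with 53 of 58 factors lower, and within the second, which is 1 library against 1, it was -0.11, with 42 of 58 lower. Of all 16450 genes tested, 8300 and 8870 were lower, with medians of -0.004 and -0.032. In both sets 40 of 58 factors were lower, beside 4589 of all 16450 genes. Among the 40 were Eif2s2 at -0.92 and -0.49, Eif3c at -1.03 and -0.39, and Eif2s1 at -0.58 and -0.30. Eif2s2 and Eif3c stayed below 0 in all 14 alternative analyses, at -0.97 to -0.41 and -1.049 to -0.36. In both genes every ATF4 BKO library was below both WT libraries. Their within-set and left-out values were therefore largely bound to be below 0 and add no support.

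The factors whose sequence occurs in other genes had the lower median log2 fold change, a difference that was not tested. Of those tested, 34 share under 10% of their 31-base words with any other gene, and their median log2 fold change was -0.16, with 31 below 0. The remaining 24 had a median of -0.36, with 23 below 0. Eif2s2 shares 12.4% and Eif3c 10.5% of their words, mostly with processed pseudogenes.

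The deposited tables also split each gene into transcripts, whose counts are estimates where transcripts overlap. Shares of the gene's TPM were read for transcripts with a mean share of 5% to 95%, of which there were 134 in 48 of the factors. In 17 every ATF4 BKO library was below both WT libraries and in 20 every one was above, where 10.1% of transcripts of all genes had the first order and 10.1% the second. These are descriptions without a test, and the transcripts named here were chosen after their values were seen. Eif2s2-205, a protein-coding transcript, made up 8.92%, 10.3% and 14.1% of Eif2s2 in ATF4 BKO replicates 1 to 3 and 24.9% and 26.2% in WT, while Eif2s2-201 made up 90.5%, 89.0% and 85.1% against 74.997% and 73.5%. For this gene the estimated shares did not overlap between the genotypes, and WT replicates 1 and 2 were close to each other. Whether the transcript mixture depends on genotype was not tested. A pair of Eif2a transcripts, both annotated as targets of nonsense-mediated decay, went opposite ways. Eif2a-202 was near 0% in all 3 ATF4 BKO libraries and at 18.4% and 17.0% in WT, and Eif2a-207 was at 31.7%, 36.1% and 30.99% against 9.64% and 19.4%. Eefsec-201, of the factor that delivers selenocysteine tRNA, had 47.4%, 51.5% and 65.0% against 33.3% and 27.9%. Eif3f-201 had 80.7%, 83.3% and 82.0% against 90.5% and 91.4%, and a retained-intron transcript of the same gene, Eif3f-202, had 16.1%, 15.9% and 11.02% against 7.39% and 6.89%. Eif4g1-205 had 9.60%, 10.6% and 7.60% against 15.6% and 20.1%, and Eif2b5-201 had 68.4%, 69.2% and 66.6% against 79.7% and 74.1%.

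**Figure D5:**
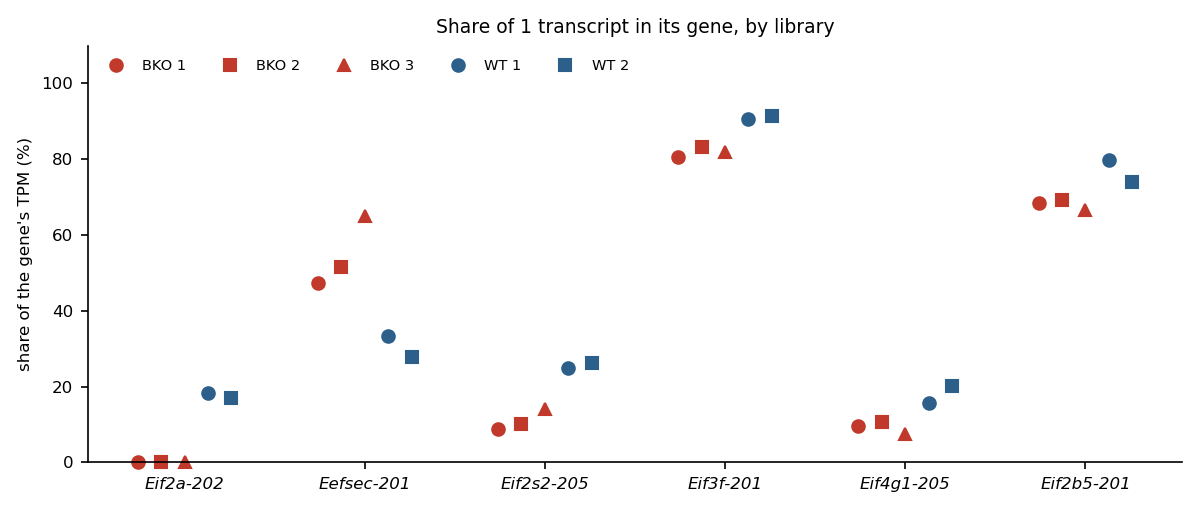
Share of 1 transcript in the TPM of its gene, in percent (vertical axis), in each library, for the 6 genes with the widest gap between genotypes, ATF4 BKO in red and WT in blue. The 3 ATF4 BKO points lie above both WT points for Eefsec-201 and below both for the other 5 transcripts.

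The promoter sequences were searched because ATF4, which dimerizes with C/EBP proteins, binds a composite element, and because many mRNAs of the translation apparatus begin with a pyrimidine tract that makes their translation depend on nutrient signalling. RefSeq windows of GRCm38.p6, from 250 bases before to 50 after each start, were at hand for 46 of the 60 factors, with 60 starts. The composite element was searched as TTNCATCA, and on the other strand as TGATGNAA. It occurred in 1 of 46 factors (2.17%), Eef2k, against 4.51% of the 27025 genes with a window. The stretch, at chr7:120851085-120851132 on the plus strand, is shown with the element in capitals. The element begins 84 bases before 1 of the 3 Eef2k starts with a window. The gene is annotated from chr7:120842831 onward, so this start lies inside it.
Eef2k: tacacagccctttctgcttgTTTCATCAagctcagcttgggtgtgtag
Eef2k was one of the factors whose genotypes overlapped.

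A tract of a C followed by at least 4 further C or T, its first base within 10 bases of the annotated start, was found in 13 of the 46 factors (28.3%) and in 34.4% of all genes with a window. The median log2 fold change was -0.17 in the 13 with a tract and -0.21 in the 33 without. Windows of 4 factors with long tracts are shown, one each for elongation, eIF2B and 2 subunits of eIF3, with the tract in capitals and read on the strand of the gene: Eef1a1 at chr9:78481710-78481754 (minus), Eif2b5 at chr16:20498782-20498831 (plus), Eif3f at chr7:108934386-108934429 (plus) and Eif3l at chr15:79075202-79075237 (plus).
Eef1a1: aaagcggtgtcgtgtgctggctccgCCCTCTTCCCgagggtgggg
Eif2b5: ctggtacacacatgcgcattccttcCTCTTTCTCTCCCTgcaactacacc
Eif3f: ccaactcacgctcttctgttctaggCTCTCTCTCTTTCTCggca
Eif3l: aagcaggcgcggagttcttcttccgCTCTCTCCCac
In Eif2b5 the run of C and T extends further before the capitals, which begin at the search limit of 10 bases before the start. A match of letters is not a measured binding site or a measured mRNA start.

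The genes around the factors were read from 3 lists. Of 34 partners and regulators of cytosolic translation, 23 lay below 0, beside 48.8% of all genes, and the median log2 fold change was -0.12. The 34 include the sex-linked Eif2s3x and Eif2s3y. Their counts in ATF4 BKO replicate 1, 4818 and 2, were outside the range of the other libraries. At an unadjusted p under 0.05, 3 were lower and 0 higher, beside 3.42% and 1.81% of all genes. In edgeR and in DESeq2, 0 passed an adjusted p of 0.05. Ppp1r15a, the stress-induced subunit that directs a phosphatase to eIF2, had 16.7, 48.3 and 20.4 CPM in ATF4 BKO and 93.7 and 48.4 CPM in WT (log2 fold change -1.32, SE 0.51, edgeR adjusted p = 0.911). Eif4ebp1, which sequesters eIF4E, had 54.1, 63.9 and 61.2 CPM against 120.0 and 78.1 CPM (log2 fold change -0.73, SE 0.20, edgeR adjusted p = 0.829). Abce1, which recycles ribosomes, had 61.1, 82.0 and 65.7 CPM against 108.5 and 83.0 CPM (log2 fold change -0.46, SE 0.19, edgeR adjusted p = 0.911). The highest was Pdcd4, an inhibitor of eIF4A, at 0.83 (SE 0.36), with 42.2, 20.3 and 30.97 CPM against 13.4 and 21.8 CPM and overlapping libraries.

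The mitochondrial translation factors serve the separate ribosome of that organelle. Of 12 listed, 11 were matched and tested, and their log2 fold changes ran from -0.22 (Mtif2) to 0.051 (Tufm) with a median of -0.029. Of the 11, 10 lay below 0, beside 48.8% of all genes. Every ATF4 BKO library was below both WT libraries in 4, beside 10.6% of all genes. At an unadjusted edgeR p under 0.05 there were 0. For scale, ATF4 and 12 of its known targets had a median of -2.27. Of these 13, 11 were lower at an unadjusted edgeR p under 0.05, beside 3.42% of all genes. DESeq2 called 9 lower, beside 0.608% of all genes. In edgeR 0 of these 13 passed an adjusted p of 0.05, and the smallest was 0.671. The mean of this list was 2.96, 3.61 and 2.87 log2 CPM in ATF4 BKO replicates 1 to 3 and 5.22 and 4.73 in WT. The genotypes were far apart in these genes. In the median deviation of the 58 factors from the 5-library mean, ATF4 BKO replicate 2 (0.034) lay above WT replicate 2 (-0.023). Taken singly, 14 of the 58 factors had every ATF4 BKO library below both WT libraries, beside 10.6% of all genes.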

How the data were processed

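BAT RNA of 3 ATF4 BKO and 2 WT mice was sequenced from stranded mRNA libraries. Per the labels, the authors made transcript tables with kallisto 0.45.0 on mm10. The deposited expected counts (estimated counts per transcript) are not normalized between mice, and the deposited TPM are the authors' values scaled within each library. The transcript annotation and the strand setting are not given in the sources used here, and the study's gene-level workflow was not analysed here.

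Both units were summed per gene with GENCODE M21 (GRCm38), where 138191 of 141450 transcripts matched, and expected counts were rounded. The 16450 genes that reached 10 counts in 2 or more libraries were tested with edgeR 4.0.16 (TMM, quasi-likelihood test, Benjamini-Hochberg) in R 4.3.3, checked on simulated data. DESeq2 1.42.0 (the study used another version of it) and limma 3.58.1 on log2(TPM + 1) or log2(TPM + 0.1) were alternatives, with other scalings, filters and left-out libraries. Prior degrees of freedom were 3.06 beside 3 residual ones. The SE given with each edgeR fold change is the absolute log2 fold change divided by the square root of the test's F statistic. No 2 libraries agreed within sampling noise (chi-square per degree of freedom at least 49.9). Log2 CPM used a prior count of 2.

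The factors and gene lists were chosen with earlier results of these data known. Named within each group were genes with an unadjusted edgeR p or a DESeq2 adjusted p under 0.05, the lowest and highest fold change, the highest mean TPM, and a fixed set of core subunits.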

Additional observations from a re-analysis of the deposited data

Results flagged for a closer look

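Eef1akmt1, a lysine methyltransferase of eEF1A, was under the count filter and was not tested, although the summed TPM of the factors includes it. It was given 196 counts in ATF4 BKO replicate 2. The other ATF4 BKO libraries had 0 and 1, and WT replicates 1 and 2 had 0 and 8. It stands out because a signal far above that of the control libraries appeared in 1 library. None of its 31-base words occur in another gene.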

How the results depend on the processing

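Among all genes, edgeR called 1. The count was 121 with DESeq2 (100 lower, 21 higher), 8 without the count filter, 0 with limma on log2(TPM + 1), 2 on log2(TPM + 0.1), 0 with a replicate block, 0 with the name prefix as a block, and 0 to 23 with 1 library left out (23 without WT replicate 1). DESeq2 called 1 factor and every other analysis 0. The median of the factors was -0.40 on log2(TPM + 1) and -0.41 on log2(TPM + 0.1), where all genes had -0.12 and -0.17, and -0.35 to -0.027 with 1 library left out. With library totals alone the median of all genes was -0.099, against 0.0077 with TMM, and that of the factors -0.30. Totals without the mitochondrial genes, an alternative chosen after seeing the data, gave -0.22. Correlations of deviations between same-numbered libraries were 0.0473 and 0.2. With 2 WT libraries these mirror the crossed values of -0.2 and -0.0473. They cannot show whether the numbers pair mice, and the labels do not say. The replicate block gave a factor median of -0.16 with 1 factor at an unadjusted p under 0.05. Of 27 named factors, 17 kept one direction in every analysis that tested them; Eef1a2 was not tested without a WT library.

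Reversals were as follows, and their cause was not tested. Eif2d fell to -0.059, -0.14 and -0.15 and Eif2b4 to -0.084, -0.19 and -0.19 with library totals, log2(TPM + 1) and log2(TPM + 0.1). Eif4e3 fell to -0.074 and -0.076 and Eif1a to -0.038 and -0.039 on the TPM scales. Eif2b4 was -0.0054 with the prefix block and -0.0031 with totals without mitochondrial genes. With 1 library left out, the eIF3 median ran from -0.41 to 0.052, Eif2d from -0.0037 to 0.10, Eif2b4 from -0.14 to 0.18, Eif4e3 from -0.089 to 0.44, Eef1akmt2 from -0.21 to 0.0080, Eef2 from -0.39 to 0.15, Eif2b5 from -0.20 to 0.12, Eif3k from -0.23 to 0.074, Eif5a from -0.30 to 0.033 and Eif6 from -0.91 to 0.13. The libraries behind these reversals were WT replicate 1 (the eIF3 median, Eef1akmt2, Eef2, Eif2b5, Eif3k, Eif5a and Eif6), WT replicate 2 (Eif2d and Eif2b4), ATF4 BKO replicate 1 (Eif4e3) and ATF4 BKO replicate 2 (Eif2b4 and Eif2b5). The promoter element was in 2.17% of factors in both windows.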
